A study of Sus scrofa with 24 samples.

Results

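The genes described here are ASB15, KLHL31, KLHL41 and FBXO32, which encode adaptor subunits of ubiquitin ligases that are abundant in striated muscle. They were read in pig hearts with a healing infarct. Probes were taken where the array's gene name, or an accession or gene identifier printed beside the probe, led to 1 of 5 listed symbols. The rule found 4 genes among the 6638 genes that could be named on the array, with 7 probes in all. TRIM63, the fifth symbol and the gene of the muscle RING-finger ligase MuRF1, matched no probe and was not analysed here.

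Domestic pigs had been given a myocardial infarction without opening the chest, and the tissue had then been reperfused. All pigs had taken 250 mg aspirin and 300 mg clopidogrel 1 day before the infarct, and 100 mg aspirin and 75 mg clopidogrel daily afterwards. At 1 month after the infarct they were randomized to intramyocardial injections, through a catheter, of either the secretome of apoptotic peripheral mononuclear cells, which is the mixture of molecules these cells release into their medium, or medium alone. The labels call the arrays of the medium pigs not treated, although these pigs also received an injection. Tissue was taken 1 month after treatment from the infarct core, from the border zone where the injections had been placed, and from normal myocardium away from the scar. The 24 arrays held 6 infarct cores, 6 border zones and 4 normal regions of secretome pigs, and 3 infarct cores, 3 border zones and 2 normal regions of medium pigs. They came from 6 secretome pigs and 3 medium pigs, of the 8 that the design randomized to each arm, and pigs 12, 13 and 40 had no normal array. Each array was 1 tissue sample of 1 pig, so the spread between arrays of a group is a spread between animals.

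Ubiquitin ligases attach chains of the small protein ubiquitin to selected proteins, many of which are then degraded by the proteasome. In the cullin-RING class the cullin is a scaffold, and an exchangeable adaptor chooses the substrate: SOCS-box proteins such as the ASB family serve cullin 5, BTB-Kelch proteins such as the KLHL family serve cullin 3, and F-box proteins such as FBXO32 serve cullin 1. In heart and skeletal muscle such ligases take part in the turnover of sarcomere proteins, and FBXO32 and TRIM63 are widely used as markers of muscle atrophy.

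The probes are 60 bases long and their sequences define what was measured. Those of both KLHL31 probes and of 2 FBXO32 probes are printed because the probes of these genes are compared with each other. That of ASB15 is printed because this gene had the largest difference of the 4 on the brightest probes. The start positions are those that the array's annotation gives in the transcript records it names, and all sequences are given 5′ to 3′.
ASB15, from base 1672: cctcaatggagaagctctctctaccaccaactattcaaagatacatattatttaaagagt
KLHL31 brightest probe, from base 506: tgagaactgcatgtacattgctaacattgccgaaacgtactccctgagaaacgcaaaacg
KLHL31 second probe, from base 1058: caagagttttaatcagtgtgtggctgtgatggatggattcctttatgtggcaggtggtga
FBXO32, from base 924: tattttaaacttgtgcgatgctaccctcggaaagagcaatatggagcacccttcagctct
FBXO32, from base 346: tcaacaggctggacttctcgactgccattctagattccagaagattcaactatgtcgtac
The KLHL31 probes lie in the same transcript record, as do these 2 FBXO32 probes. The brightest FBXO32 probe was designed on another record, and the probe of KLHL41 was named through its accession because the array itself lists it only as a sequence cluster. The ASB15 probe holds 21 G or C bases of 60, fewer than the 27 of each of the other 4 printed here. The KLHL41 probe, not printed, also holds 21, and the brightest FBXO32 probe holds 23. No genome build is named in the files, so no genomic positions are given.

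Values are log2 processed signals minus the log2 of the 75th percentile of all probes on the same array, so a value of 0 is the level that 3 in 4 probes lie below. They compare 1 probe between arrays and are not set against those of another probe. No member probe was saturated. On the infarct core array of pig 40, a medium pig, the ASB15 probe and the brightest KLHL31 probe were not well above background, and every other member probe was well above background on every array. Between 61.5% and 75.6% of all probes were well above background on an array. The arrays were scanned in 2 series of 12, and all arrays of a pig lay in 1 series. Between the series 54.4% of the 34362 probes tested differed at an adjusted p under 0.05, so region differences are given within each series as well. These rest on few animals: the first series holds only 2 normal arrays, and pig 10 is the only medium pig of the second. Of the 18 cardiomyocyte markers listed, 15 were measured, and their mean log2 value lay between 2.05 and 8.46 in infarct cores (median 6.71), between 7.34 and 8.89 in border zones and between 8.28 and 8.95 in normal regions. The lowest of these was the infarct core of pig 40, and the next lowest infarct core had 5.93.

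**Figure D1:**
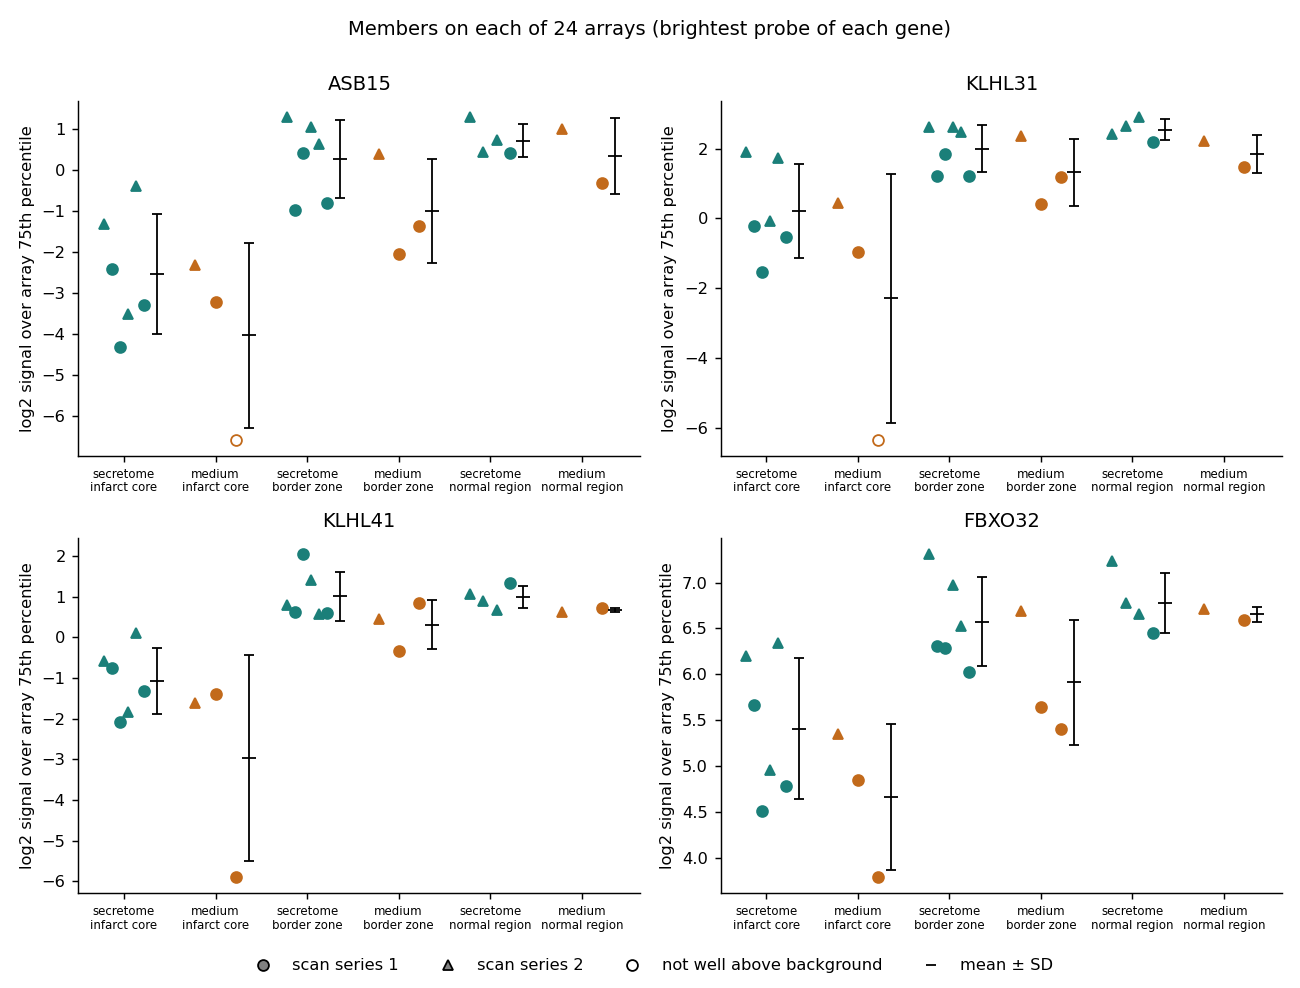
Log2 signal of the brightest probe of each gene over the 75th percentile of its array, in 6 groups of region and arm; each symbol is 1 pig, circles and triangles are the scan series, open symbols were not well above background, and black bars are the mean ± SD. The infarct core of pig 40 is the lowest point of each panel, at -6.59 for ASB15 and 3.79 for FBXO32.

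All 4 genes were lower in the infarct core than in normal myocardium. On the brightest probes ASB15 was lower by the most, with 10.9-fold less signal, and FBXO32 by the least, with 2.83-fold less. The order depended on probe and processing. The second KLHL31 probe had a log2 difference of -1.83, close to -1.78 and -1.76 on the other FBXO32 probes. Over the alternatives the weakest difference was -1.62 for ASB15 and -1.64 for KLHL31, so ASB15 did not always have the largest. Among all 34362 probes 27.6% were lower in infarct core versus normal region. The members were chosen with earlier results of these data known, so 4 of 4 beside this share is a description and not a test. For the separation of regions and the counts of pigs given below, the share over all probes was not counted. These too are description only. The differences were tested with limma, with the pig as a random block, both arms weighted equally and p-values adjusted over all probes by the Benjamini-Hochberg method.

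ASB15 is the SOCS-box adaptor of the group. It had values of -6.59 to -0.38 in the 9 infarct cores (median -3.22), -2.04 to 1.31 in the 9 border zones (median 0.41) and -0.30 to 1.29 in the 6 normal regions (median 0.60). Every infarct core was thus below every normal region, while border zones and normal regions overlapped. The log2 difference of infarct core minus normal region was -3.45 ± 0.51 (SE), with an adjusted p of 1.27e-05 in limma. Within pigs it lay between -3.96 in pig 14 and -1.13 in pig 15, and it was negative in 6 of 6 pigs. Within the scan series it was -4.08 in the first and -2.95 in the second.

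KLHL31 is a BTB-Kelch protein of skeletal and cardiac muscle. On its brightest probe it had -6.35 to 1.92 in infarct cores (median -0.22), 0.42 to 2.63 in border zones (median 1.85) and 1.47 to 2.91 in normal regions (median 2.33). Infarct cores and normal regions overlapped here, with 7 of the 9 infarct cores below the lowest normal region. The log2 difference of infarct core minus normal region was -2.73 ± 0.60 (SE, adjusted p = 0.000664, limma). The second probe of KLHL31 gave -1.83 ± 0.26 (SE, adjusted p = 9.54e-06, limma). Both probes were lower in the infarct core in 6 of 6 pigs, so direction and call were shared while the size was not. The infarct core of pig 40, where the brightest probe was not well above background, had -6.35 on that probe and -2.75 on the second. Over all 24 arrays the correlation of the probes was 0.879, and it was 0.962 without that array. Without pig 40 the difference of the brightest probe was -2.08, and within the scan series it was -3.83 and -1.64.

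KLHL41, also called sarcosin, is a BTB-Kelch protein of the sarcomere that is known to stabilise nebulin in skeletal muscle. It had -5.89 to 0.10 in infarct cores (median -1.39), -0.34 to 2.05 in border zones (median 0.63) and 0.63 to 1.33 in normal regions (median 0.80). All 9 infarct cores lay below all 6 normal regions. The log2 difference of infarct core minus normal region was -2.64 ± 0.50 (SE, adjusted p = 0.000176, limma), negative in 6 of 6 pigs, from -2.73 in pig 14 to -0.57 in pig 15. Within the scan series it was -3.42 and -1.95. The first series includes pig 40, whose infarct core had -5.89 and which has no normal array.

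FBXO32, also called atrogin-1, is the F-box adaptor of the group, with calcineurin among its described substrates in heart. On its brightest probe it had 3.79 to 6.35 in infarct cores (median 4.96), 5.40 to 7.31 in border zones (median 6.31) and 6.45 to 7.23 in normal regions (median 6.69). All infarct cores were below all normal regions on this probe, although its log2 difference, -1.50 ± 0.23, was the smallest of the 4 genes (SE, adjusted p = 1.62e-05, limma). The other FBXO32 probes gave -1.78 ± 0.30 and -1.76 ± 0.30 (SE), both past the threshold, with correlations of 0.971 to 0.997 among the 3 probes over the 24 arrays. On these probes 8 and 7 of the 9 infarct cores were below the lowest normal region. The difference was negative in 6 of 6 pigs on each probe, and pig 15 had the smallest, -0.32 on the brightest. Within the scan series it was -1.84 and -1.21.

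Pig 15, a secretome pig, had the smallest infarct core minus normal region difference for ASB15, KLHL41 and FBXO32, and pig 11, also a secretome pig, for KLHL31 with -0.51. The largest differences were those of pig 14 for ASB15, KLHL41 and FBXO32 and of pig 16 for KLHL31, again in secretome pigs. No medium pig with a normal array was at either end of the range for any of the 4 genes.

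Against the border zone, which all 9 pigs had, the infarct core was lower for all 4 genes in 9 of 9 pigs. Among all probes 23.6% were lower in this comparison. The log2 difference was -2.93 ± 0.44 for ASB15 (adjusted p = 3.4e-05), -2.70 ± 0.52 for KLHL31 (adjusted p = 0.000261), -2.68 ± 0.44 for KLHL41 (adjusted p = 5.99e-05) and -1.20 ± 0.20 for FBXO32 (adjusted p = 6.39e-05, SE and limma in each case). In pig 40 it was -5.23 for ASB15, -7.52 for KLHL31 and -6.72 for KLHL41, each the most negative of the 9 pigs. The ASB15 and KLHL31 probes were not well above background on its infarct core array, with processed signals of 6.37 and 7.54. The KLHL41 probe was called well above background there, but was also dim, with 10.34. On the second KLHL31 probe, which was well above background, pig 40 had -2.36, behind -2.84 in pig 14 and -2.40 in pig 13. For FBXO32 pig 40 stood within the range, with -1.61, and pig 14 had the largest difference, -2.02. Without pig 40 the differences were -2.38, -1.72, -1.82 and -1.11 for ASB15, KLHL31, KLHL41 and FBXO32, all past the threshold. Within the second scan series FBXO32 had -1.22 with an adjusted p of 0.0505 in limma and so missed the threshold there.

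**Figure D2:**
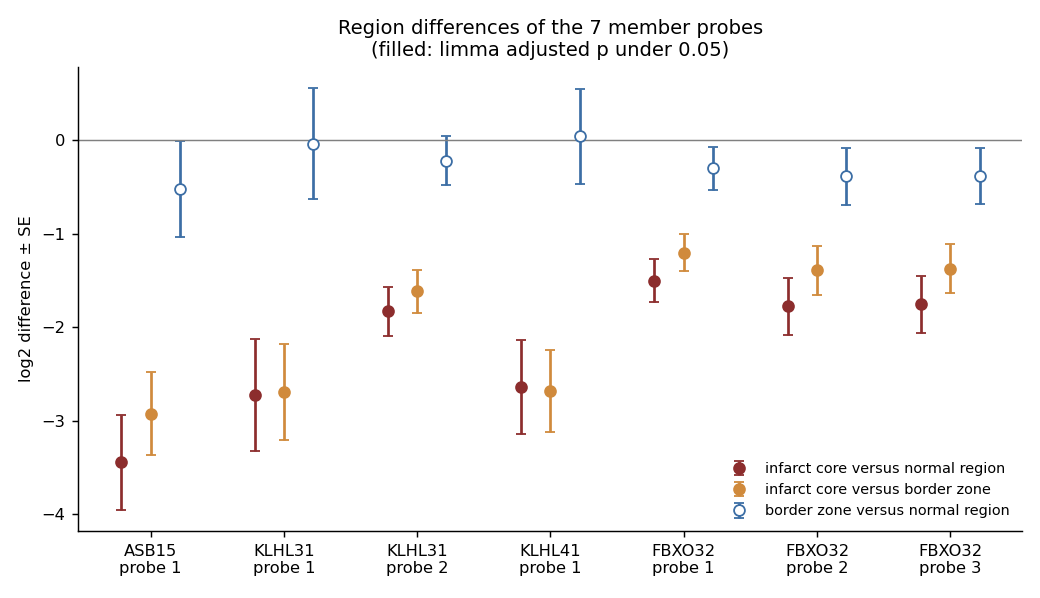
Fitted log2 difference between regions for each of the 7 probes, with its standard error as bars, where probe 1 of a gene is its brightest; filled symbols passed an adjusted p of 0.05 in limma. All 7 probes were lower in the infarct core than in either other region, between -3.45 and -1.20, and the open symbols of border zone versus normal region lie near 0.

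The border zone was not told apart from normal myocardium by the test for any of the 4 genes: 0 of 4 passed it, and among all probes 0.466% did. The log2 differences were -0.52 ± 0.51 for ASB15, -0.03 ± 0.60 for KLHL31, 0.04 ± 0.50 for KLHL41 and -0.30 ± 0.23 for FBXO32 (SE, adjusted p between 0.572 and 0.990 in limma). The border zone was lower in 4 of 6 pigs for ASB15, KLHL31 and FBXO32 and in 5 of 6 for KLHL41. Pigs 16 and 18 had the lowest border zones relative to their normal regions for all 4 genes, with -1.21 and -1.73 for ASB15. These are the pigs of the first scan series that have a normal array, and the 4 pigs of the second series lay between -0.61 and 0.59 for ASB15.

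Ranked over the 6 groups of region and arm, the levels of each gene kept the infarct cores at the bottom. For ASB15 the mean log2 values were 0.73 in secretome normal regions, 0.36 in medium normal regions, 0.28 in secretome border zones, -0.998 in medium border zones, -2.54 in secretome infarct cores and -4.04 in medium infarct cores. The only neighbours in this order whose means lay further apart than the SD of either group were the border zones of the arms, and the medium border zone and the secretome infarct core. For KLHL41 that held for the secretome and medium normal regions, at 0.99 and 0.67, and for the medium border zone and the secretome infarct core, at 0.31 and -1.08. For the brightest probes of KLHL31 and FBXO32 no neighbours lay apart beyond the SD of both groups, while on the second KLHL31 probe the medium border zone and the secretome infarct core did, at -0.44 and -1.48. KLHL31 ran between 2.55 in secretome normal regions and -2.29 in medium infarct cores, and FBXO32 between 6.78 and 4.67 in the same groups.

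In bulk tissue, fewer cells of a type and less RNA per cell cannot be told apart. The cardiomyocyte markers moved with the 4 genes: all 15 measured were lower in the infarct core than in normal myocardium, with a median log2 difference of -2.30. The other way went 9 of 9 fibroblast markers, 7 of 7 macrophage markers and 7 of 8 lymphocyte markers, which were higher. Of the skeletal fibre markers, 3 of 7 were lower and none higher. The differences of the 4 genes were therefore also read relative to the mean of the 15 cardiomyocyte markers on the same array, a fit in which 89.9% of all probes were higher in the infarct core than in normal myocardium and 0.148% lower.

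Relative to the markers, ASB15 alone of the 4 passed the threshold as lower in the infarct core than in normal myocardium. Its log2 difference was -1.28 ± 0.43 (SE, adjusted p = 0.00674, limma), negative in 6 of 6 pigs. Most probes passed in this fit, so adjustment changed the p little (0.00518 unadjusted, limma). The adjusted p covers calls in both directions together and does not bound the errors among the few lower ones. KLHL31 had -0.61 ± 0.41, and its second probe 0.43 ± 0.47, so that its probes differed in sign. KLHL41 had -0.41 ± 0.42, with 6 of 6 pigs below 0. FBXO32 had 0.75 ± 0.47, with 5 of 6 pigs above 0 (SE, adjusted p between 0.131 and 0.351 for KLHL31, KLHL41 and FBXO32 in limma). The other FBXO32 probes gave 0.43 ± 0.47 and 0.45 ± 0.47 (SE), neither past the threshold. The ASB15 difference was 0.09 after normexp background correction and 0.003 in the authors' deposited table, with adjusted p of 0.906 and 0.996 in limma. Under quantile normalization KLHL31, with -1.18, and KLHL41, with -1.08, passed the threshold as well. Without pig 10 the ASB15 difference was -1.11 with an adjusted p of 0.073 in limma.

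Against the border zone, 0.0553% of all probes were lower relative to the markers and 92.0% higher. ASB15 had a log2 difference of -0.87 ± 0.37 (SE, adjusted p = 0.0284, limma), below 0 in 8 of 9 pigs. Its unadjusted p was 0.0255 in limma, so the same limit of the adjustment holds here. With the pig as a fixed block the adjusted p was 0.0575, and with scan series as covariate it was 0.0655, in limma. The call was also lost without any 1 of pigs 10, 11, 13, 14, 16 and 18, with adjusted p between 0.0529 and 0.177 in limma, and the difference was 0.77 after normexp correction and 0.43 in the authors' values. KLHL31 had -0.64 ± 0.36 and, on its second probe, 0.44 ± 0.41, with the opposite sign. KLHL41 had -0.63 ± 0.37, with all 9 pigs below 0. Neither gene passed the threshold. FBXO32 had 0.85 ± 0.41 (SE, adjusted p = 0.0512, limma), above 0 in 7 of 9 pigs. Its other probes gave 0.66 ± 0.41 and 0.68 ± 0.41 (SE, adjusted p of 0.124 and 0.113 in limma). On the brightest probe pig 40 had the highest value, 4.19, and without this pig the difference was 0.18. The cardiomyocyte marker mean of that array was 2.05, the lowest of the 24.

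**Figure D3:**
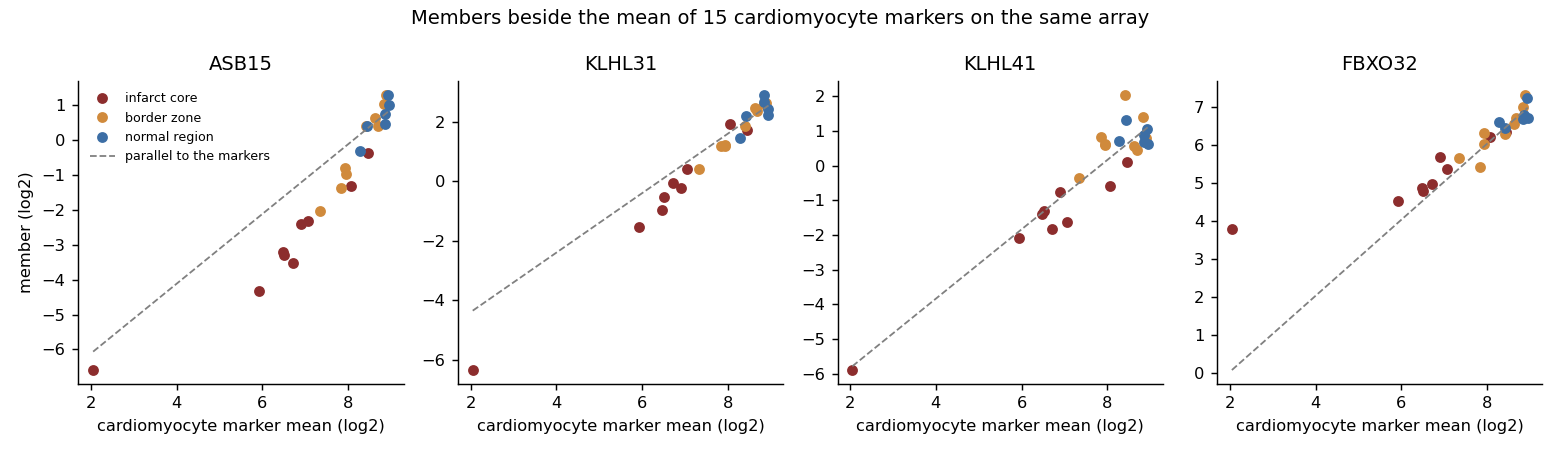
Log2 value of the brightest probe of each gene against the mean log2 value of the 15 cardiomyocyte markers on the same array, for 24 arrays coloured by region. The dashed line runs parallel to the markers through the mean of the normal regions: ASB15 in infarct cores lies below it, and FBXO32 in the infarct core of pig 40, at a marker mean of 2.05, lies far above it.

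No member passed the test between the secretome and the medium arm in any region. In the infarct core 0.0146% of all probes passed it, all of them lower in secretome pigs, and in the border zone and the normal region 0% did. At an unadjusted p under 0.05 limma had 1685, 2475 and 596 of 34362 probes in infarct core, border zone and normal region. If no probe differed, a share of about 0.05 of them would be counted on average. The count of the border zone lies above that share and that of the normal region below it. Since at most 5 probes passed after adjustment in a region, these counts are not read as a response. In the infarct core ASB15 had -4.33 to -0.38 in the 6 secretome pigs (median -2.84), against -2.31, -3.22 and -6.59 in medium pigs 10, 18 and 40. KLHL31 had -1.53 to 1.92 in secretome pigs (median -0.14), against 0.43, -0.96 and -6.35 in medium pigs 10, 18 and 40. The arms overlapped for both genes, and only pig 40 lay outside the range of the secretome pigs. KLHL41 had -2.08 to 0.10 in secretome pigs (median -1.04), against -1.62, -1.39 and -5.89 in medium pigs 10, 18 and 40. FBXO32 had 4.51 to 6.35 in secretome pigs (median 5.31), against 5.35, 4.85 and 3.79 in medium pigs 10, 18 and 40. For these genes too pig 40 was the only medium pig below every secretome pig.

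The log2 difference of secretome minus medium in the infarct core was 1.503 ± 0.93 for ASB15, 2.51 ± 1.09 for KLHL31, 1.89 ± 0.92 for KLHL41 and 0.74 ± 0.42 for FBXO32 (SE, adjusted p = 0.974 for each in limma). The second KLHL31 probe gave 0.55 ± 0.48. In the same contrast the median log2 difference was 1.97 over the 15 cardiomyocyte markers, -0.69 over 7 macrophage markers and -1.15 over 8 lymphocyte markers, 0 of them past the threshold. The marker mean of cardiomyocytes lay between 5.93 and 8.46 in secretome infarct cores and between 2.05 and 7.06 in medium infarct cores, and its part in the differences was not tested. Without pig 40 the differences were 0.23, 0.48, 0.43 and 0.31 in the same order of genes. Pig 40 was 1 of only 3 medium pigs, so the size of each difference rested mostly on that animal. All 4 differences were positive with and without it and none passed the threshold. Without pig 10 they were the highest for ASB15, KLHL31 and FBXO32, with 2.37, 3.87 and 1.09, and without pig 18 for KLHL41, with 2.68. The second scan series holds only 1 medium infarct core, so its values were not read as a test. After normexp background correction, which treats dim probes otherwise, the difference was -0.38 for ASB15 and -0.002 for KLHL41.

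In the border zone the secretome minus medium difference was 1.27 for ASB15, 0.68 for KLHL31, 0.70 for KLHL41 and 0.66 for FBXO32 (adjusted p between 0.699 and 0.863 in limma). ASB15 had -0.97 to 1.31 in the 6 secretome border zones (median 0.54), against 0.41, -2.04 and -1.36 in medium pigs 10, 18 and 40. FBXO32 had 6.02 to 7.31 in secretome border zones (median 6.42), against 6.69, 5.64 and 5.40 in medium pigs 10, 18 and 40. KLHL31 had 1.20 to 2.63 in secretome border zones (median 2.16), against 2.35, 0.42 and 1.17 in medium pigs 10, 18 and 40. For these 3 genes pigs 18 and 40, of the first scan series, lay below every secretome pig, and pig 10, of the second, lay among them. KLHL41 had 0.56 to 2.05 in secretome border zones (median 0.72), against 0.45, -0.34 and 0.83 in medium pigs 10, 18 and 40. Here pigs 10 and 18 lay below every secretome pig and pig 40 among them. In the border zone the medians of secretome minus medium were -1.19 for fibroblast, -0.75 for macrophage, -1.36 for lymphocyte and 0.29 for cardiomyocyte markers. No marker passed the threshold there. The marker means of the arms overlapped for the fibroblast, lymphocyte and cardiomyocyte lists, and not for the macrophage list. The part of the markers in the members' values was not tested. In the normal region, with 4 secretome and 2 medium pigs, the fitted differences were 0.64 for ASB15, 1.17 for KLHL31, 0.74 for KLHL41 and 0.27 for FBXO32, none past the threshold. They exceed the differences of the group means, since these means were 0.73 and 0.36 for ASB15, 2.55 and 1.85 for KLHL31, 0.99 and 0.67 for KLHL41, and 6.78 and 6.65 for FBXO32 in secretome and medium pigs. Leaving out 1 pig moved the fitted differences to between 0.12 and 1.25 for ASB15, 0.41 and 1.60 for KLHL31, 0.32 and 1.05 for KLHL41, and 0.02 and 0.47 for FBXO32. The lowest of each came without pig 40, which has no normal array but shares the fit, and the highest without pig 10 or pig 18. KLHL41 there had 1.06, 0.90, 0.68 and 1.33 in secretome pigs 11, 14, 15 and 16, against 0.63 and 0.71 in medium pigs 10 and 18.

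Whether the difference of infarct core minus border zone was another in secretome than in medium pigs was tested directly. The difference between the arms was 0.23 for ASB15, 1.83 for KLHL31, 1.19 for KLHL41 and 0.08 for FBXO32 on the log2 scale, none past the threshold. The second KLHL31 probe, well above background on all arrays, gave -0.05 ± 0.46 (SE). Of all 34362 probes 0% passed, with 1877 at an unadjusted p under 0.05 in limma, where a share of about 0.05 would lie if none differed. Without pig 40 the values were -0.87, -0.13, -0.53 and -0.10, so that all 4 changed sign.

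**Figure D4:**
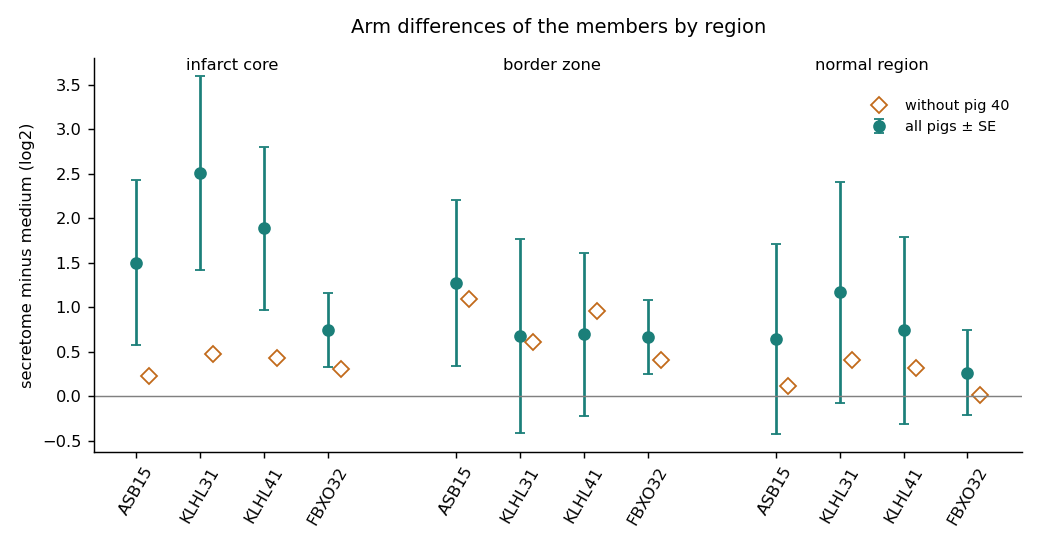
Fitted log2 difference of secretome minus medium pigs in each region for the brightest probe of each gene, over all pigs with its standard error and without pig 40. In the infarct core the differences of 1.503, 2.51, 1.89 and 0.74 became 0.23, 0.48, 0.43 and 0.31 without pig 40.

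The other genes of the pathway were read in the same fit, from lists of ligases, cullin partners, conjugating enzymes, proteasome subunits and substrates. Over all 6048 named genes measured, 30.7% were lower and 27.6% higher in the infarct core than in normal myocardium, with a median log2 difference of -0.07, and the lists are described beside these values. Among other ligases and adaptors of striated muscle, only 4 of 25 were measured. TRIM55, the MuRF2 ligase of the sarcomere, was lower by -2.62 ± 0.49 (SE, adjusted p = 0.000136, limma), and ASB2, an ASB adaptor whose described substrates in muscle are filamins and desmin, by -2.49 ± 0.47 (SE, adjusted p = 0.000147, limma). FBXO30, an F-box protein described in skeletal muscle atrophy, had -0.38 ± 0.19 and FBXO21 had -0.01 ± 0.11 (SE), neither past the threshold.

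Of 12 measured ligases that most tissues express, 6 were lower and 1 higher. FBXW7, an F-box protein, had a log2 difference of -1.40 and WWP1, a HECT ligase, -1.04, while MDM2, the ligase of p53, was higher by 0.66. Of 9 cullins, cullin partners and signalosome subunits, 7 were lower and 2 higher. ELOC, the elongin C that links SOCS-box proteins such as ASB15 to their cullin, had -1.42. The signalosome subunits COPS5 and COPS6, which remove NEDD8 from cullins, had -1.25 and -1.02. CAND1, which exchanges adaptors on cullins, was higher by 0.66. All of these passed the test in limma, with adjusted p between 8.1e-06 and 4.3e-05.

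Of 12 ubiquitin genes and activating and conjugating enzymes, 8 were lower and 2 higher, with a median of -0.36 that turned to 0.05 under quantile normalization and to 0.01 in the authors' values. UBE2D1 and UBE2D3, conjugating enzymes that work with many ligases, had -1.995 and -0.92, and the ubiquitin gene UBB had -0.71. UBE2J1, a conjugating enzyme of the endoplasmic reticulum, was higher by 0.64. All 17 measured subunits of the standard proteasome were lower, between -1.27 and -0.41 with a median of -0.76. Those with the smallest p were PSMC5, an ATPase of the cap, with -1.14, PSMB4 and PSMA4 of the core particle with -0.85 and -0.76, and PSMD3 of the lid with -0.84. The number of proteasome subunits past the threshold was 9 after normexp correction and 11 within the second scan series. Of 5 subunits and activators of the immunoproteasome, the form that immune cells use, 1 was higher and 1 lower: PSMB9 had 0.70 and PSME1 -0.32, and PSMB8 with 0.34 and PSME2 with -0.13 missed the threshold. The count of 1 lower became 0 when any 1 of 7 of the 9 pigs was left out, under quantile normalization and after normexp correction, and the count of 1 higher became 0 without pig 18.

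Of 9 deubiquitinases, 5 were lower and 3 higher. USP2 had -2.23, UCHL3 -0.75 and UCHL5 -1.04, and UCHL1, which is abundant in neurons, was higher by 2.26. Of 20 regulators of muscle atrophy, among them FOXO, IGF and myostatin pathway genes, 9 were lower and 1 higher. The one higher was IGF1, a growth factor that restrains FBXO32 transcription in muscle, with 1.99 ± 0.29 (SE, adjusted p = 1.11e-05, limma). IGF1 also stood 1.44 higher in the border zone than in normal myocardium (adjusted p = 0.0312, limma), the only gene of the pathway lists to pass there. That call did not hold with the pig as a fixed block, without a block, with scan series as covariate, in the authors' values, or without pig 16 or pig 40, since 0 probes were higher at the threshold in each of these fits. MSTN, the muscle growth inhibitor myostatin, had -2.69 with 4 of 9 infarct cores well above background, the coactivator PPARGC1A had -2.62 and the transcription factor KLF15 -1.29. Of 6 autophagy genes 3 were lower and none higher: LAMP2 of the lysosome membrane had -0.69, TFEB, a lysosomal transcription factor, -0.80 and the co-chaperone BAG3 -0.60, while BECN1 with -0.18 missed the threshold.

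Of 11 substrates and sarcomere partners of the members and related ligases, 9 were lower and 1 higher, with a median of -1.58. The number lower was 3 after normexp correction, 3 within the second scan series, and 6 with a median of -0.68 in the authors' values. TTN, the giant titin protein that binds MuRF ligases, had -2.51, NRAP, an actin-anchoring protein whose turnover involves KLHL41, -2.21 and CKM, muscle creatine kinase, -2.06. PPP3CA, the catalytic subunit of calcineurin, was higher by 0.87 ± 0.16 (SE, adjusted p = 0.00014, limma), in 6 of 6 pigs. Other members of the gene families were also counted, in lists made after the data had been seen: 2 of 6 other ASB genes were lower and 2 higher, 4 and 3 of 11 KLHL and KBTBD genes, 5 and 2 of 15 F-box genes, and 5 and 4 of 18 TRIM genes. These shares lie beside the 30.7% lower and 27.6% higher of all named genes.

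**Figure D5:**
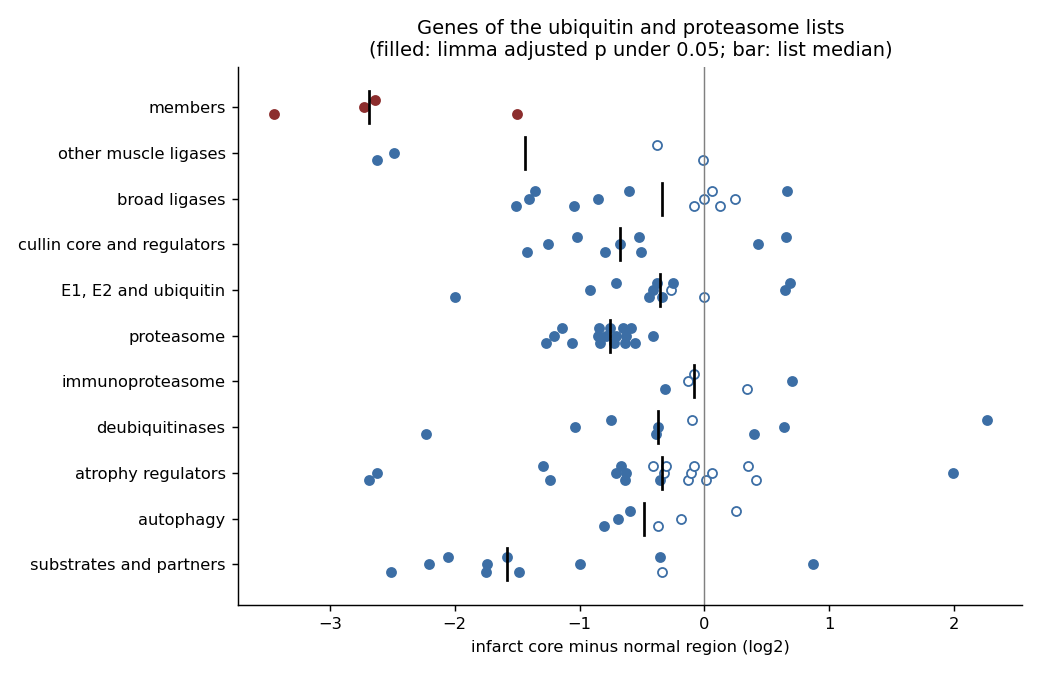
Log2 difference of infarct core minus normal region for the members and for each list of pathway genes, 1 point per measured gene, filled where it passed the test, with the median as a bar. The 17 proteasome subunits all lie between -1.27 and -0.41, and the 4 members lie between -3.45 and -1.50.

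The genes whose log2 values followed each member most closely over the 24 arrays were named by Pearson correlation among 6032 other named genes. These arrays share pigs, regions and scan series, and the large step between infarct core and the other regions is in every value, so the coefficients describe the arrays and carry no test. For ASB15 they were PRKAA2 with 0.989, MDH2 with 0.987 and HAND2 with 0.987. For KLHL31 they were TPM1 and AQP7 with 0.985 each and CKM with 0.983, and for KLHL41 they were RBM24 with 0.977, POPDC3 with 0.967 and LRRC39 with 0.966. For FBXO32 they were PDHA1 with 0.986, DCAF11 with 0.982 and RBM38 with 0.981.

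With the mean of each group taken out, PRKAA2 still stood first for ASB15, with 0.975, before ITGB6 with 0.970 and PTGER3 with 0.968. TPM1 stood first for KLHL31 with 0.983, before CAV3 and AQP7 with 0.976 each. RBM24 stood first for KLHL41 with 0.936, before LRRC2 with 0.935 and LRRC39 with 0.925, and TCTN2 and PDHA1, with 0.968 each, before MLPH with 0.964 for FBXO32. Among the members the closest pair was ASB15 and FBXO32, with 0.971 over all arrays and 0.919 after group means were taken out. The least alike were KLHL41 and FBXO32, with 0.852 and 0.601.

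The members also differed between the scan series. With it as a term in the fit, the second series was higher than the first on the brightest probes by 1.58 for ASB15 (adjusted p = 0.00851), by 1.68 for KLHL31 (adjusted p = 0.0181) and by 0.76 for FBXO32 (adjusted p = 0.00547), and by 0.34 for KLHL41, which did not pass the threshold (limma in each case). The second KLHL31 probe gave 0.80 and the other FBXO32 probes 1.35 and 1.47, so the size varied between probes of the same gene. Whether the genes differed from each other in this was not tested. A pig belongs to 1 series, so a shift of the series and a difference between its pigs cannot be told apart. The difference of the infarct core from the border zone is taken within pigs, since all 9 had both arrays. Against the normal region only 6 pigs were paired, and pigs 12, 13 and 40 entered the fit without a normal array. There the fit could exceed the difference within pigs: for KLHL31 it was -2.73, against a median of -2.11 within the 6 pigs. The direction of both differences was the same in both series for all 4 genes. Border zone minus normal region was -0.63 in the first series and 0.01 in the second for FBXO32, neither past the threshold.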

How the data were processed

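Gene expression was measured on 24 one-colour Agilent arrays of pig myocardium, labelled with Cy3 from 100 ng of total RNA with an RNA integrity number above 6, per the labels' protocols. The deposited scanner files hold each spot's intensity as processed by Agilent Feature Extraction 10.7.3.1, with background handled by that software, per the file headers. A second deposited table holds log2 values that the authors normalized for 33348 probes. Limma 3.14.4 is named in the submitters' processing notes, and the scale and direction of the table were checked against the scanner files: after centring each probe, 24 of 24 columns correlated best with their own array (0.728 to 0.825), and column medians lay between 7.684 and 7.692. How the authors centred these values is not given in the sources used here. They served as an alternative.

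From the scanner files, control and flagged spots were left out, spots of a probe were averaged, and log2 of the processed signal minus the array's 75th percentile was taken. Probes that the scanner software called well above background on fewer than 3 of the 24 arrays were dropped, leaving 34362 of 43603. Of all probes 13874 had 1 symbol, through accession, gene identifier, name or description and with RefSeq names for pig genes, 32 had several and 29697 had none. A gene was read from its brightest kept probe. Limma 3.58.1 in R 4.3.3 was fitted with a mean per region and arm over all 24 arrays, the pig as a random block (correlation 0.548) and Benjamini-Hochberg adjustment over all kept probes at 0.05. The fit relative to cardiomyocyte markers subtracted the mean of 15 markers on each array first. The procedure was tested on simulated data.

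The replicate number is the number of the animal in the labels, so that arrays of 1 pig are paired. Deviations from the group means correlated between 0.120 and 0.778 over the 21 pairs of arrays of 1 pig (mean 0.583), against a mean of 0.439 between arrays of different pigs and groups in the same scan series and of -0.454 between series. The number of arrays limits the precision. With the pig as a block, the p-values of infarct core versus border zone measure mostly how differences within pigs vary between animals. The p-values against the normal region also draw on 3 pigs without a normal array, so they include some spread between animals. Those of arm differences within a region measure the spread between animals, which includes that between the scan series.

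The members and gene lists were chosen with earlier results of these data known, and the family lists after the data had been seen. Besides the members, the text names the 4 genes of each pathway list with the smallest p in infarct core versus normal region, of which 1 is not reported here, every measured gene of the list of muscle ligases, the 3 genes most correlated with each member by values and by deviations, and cell type markers where they stand beside a result. Alternatives were quantile normalization, normexp background correction with an offset of 50, the authors' values, a percentile taken only over probes that every array detected, no filter and a stricter filter of 12 arrays, no block, the pig as a fixed block, scan series as covariate, slide as block, each scan series alone, the mean of a gene's probes, and leaving out each pig.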

Additional observations from a re-analysis of the deposited data

How the results depend on the processing

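The calls of the 4 genes as lower in the infarct core held under all 13 alternatives against the normal region, with log2 differences of -4.08 to -1.62 for ASB15, -3.83 to -1.64 for KLHL31, -3.42 to -1.57 for KLHL41 and -1.84 to -0.99 for FBXO32. Against the border zone they held under all 13 except that FBXO32 missed the threshold within the second scan series (-1.22). Leaving out each pig in turn changed neither count of 4. With pairing treated otherwise, as no replicate block and with the pig as a fixed replicate block, ASB15 had -3.83 and -3.29 against the normal region, and all 4 calls stayed in both infarct comparisons. The fixed block gives no difference between arms within a region, which was therefore not run.

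The results relative to cardiomyocyte markers depended on the processing. Against the normal region 1 member was lower, and the count was 3 under quantile normalization, 0 after normexp correction, 0 in the authors' values, 0 within the first scan series, and 0 to 1 when each pig was left out. Against the border zone 1 member was lower, and the count was 3 under quantile normalization, 0 after normexp correction, in the authors' values, with the fixed replicate block, with scan series as covariate and within the first scan series, and 0 to 2 when each pig was left out. No member was higher there, but 1 was without a filter and with the stricter filter, and 0 to 1 when each pig was left out. The ASB15 difference changed sign after normexp correction, to 0.086 against the normal region and 0.766 against the border zone, and in the authors' values, to 0.003 and 0.426. The cause was not tested. Of the list counts of lower genes in infarct core versus normal region, normexp correction moved the cullin partners to 3, against 7, the atrophy regulators to 3, against 9, the autophagy genes to 0, against 3, and the conjugating enzymes to 2, against 8. Within the second scan series the deubiquitinases had 1 lower, against 5. Between 1 and 2 other ASB genes were lower when each pig was left out. Between border zone and normal region 157 probes were higher, against 0 with the fixed replicate block and 0 without a block. Normexp correction also moved the median of all named genes to -0.170, against -0.068, in infarct core versus normal region.

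Precision is limited by 3 medium pigs, 2 of them with a normal array, and by 1 probe each for ASB15 and KLHL41. It is also limited by dim signal of ASB15, KLHL31 and KLHL41 in the infarct core of pig 40. Few genes of several lists were measured.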
